A study of Mus musculus with 12 samples.

Results

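Genes of fibroblast growth factor (FGF) signalling were followed in mouse neurons made from D3 embryonic stem cells. The 10 genes were chosen by name as the secreted ligands Fgf5, Fgf8 and Fgf15, the intracellular factor Fgf13, the receptors Fgfr1 to Fgfr4, and the inhibitors Spry2 and Spry4. Each had a single probe set with 1 gene symbol, out of 19938 genes that the array named in this way. RNA of whole cultures was read at day 16 of differentiation on 1-colour whole-transcript arrays. The knockdown groups were cells with knockdown of the protein arginine methyltransferase PRMT1 (siPRMT1) and cells with knockdown of PRMT8 (siPRMT8). The controls were cells given a scrambled sequence (siSCR) and unmodified D3 cells. All were of D3 origin, with 3 replicates in each group, and the sample titles name no other treatment. Whether an engineered group was a clone or a pool is not stated in the labels, and neither is how its replicates were separated. A p-value here therefore reflects only the spread among those cultures, and a line's own history cannot be told apart from its knockdown.

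FGF ligands bind receptor tyrosine kinases at the cell surface, with heparan sulphate or Klotho proteins as co-receptors. The receptors signal through adaptor proteins to the RAS and MAP kinase cascade. This raises transcription of ETS factors such as Etv4 and Etv5, and of feedback inhibitors that include the Sprouty and Spred proteins and the phosphatase Dusp6. In embryonic stem cells FGF signalling promotes exit from self-renewal and entry into the neural lineage, and in the neural tube it patterns the midbrain, hindbrain and posterior axis.

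Values were log2 signals, so a difference of 1 is a 2-fold change. They were tested with limma over 14953 genes, with Benjamini-Hochberg adjusted p-values and a threshold of 0.05. The number of arrays, 12, limits the precision. Prmt1 read 7.72, 7.95 and 7.59 in siPRMT1, 9.27, 9.20 and 9.27 in siPRMT8, 8.84, 8.74 and 8.86 in siSCR, and 8.69, 8.86 and 8.71 in D3. Against siSCR it fell in siPRMT1 (log2 change -1.06, adjusted p = 0.000115) and rose in siPRMT8 (0.43, adjusted p = 0.00625). Prmt8 read 6.44, 6.17 and 6.44 in siPRMT8, 6.35, 6.89 and 6.67 in siPRMT1, 6.60, 7.18 and 7.10 in siSCR, and 7.37, 7.41 and 7.40 in D3. Prmt8 fell in siPRMT8 against siSCR (-0.61, adjusted p = 0.0171). In siPRMT1 it lay at -0.32 against siSCR (adjusted p = 0.177) and fell against D3 (-0.75, adjusted p = 0.00488). In siSCR it lay at -0.43 against D3 (adjusted p = 0.388). The Prmt8 difference between siPRMT1 and siPRMT8, 0.29, did not pass (adjusted p = 0.489). Of 15 neuron markers, all were above the filter on dim genes. They averaged 8.14 to 8.35 in siPRMT1, 8.28 to 8.49 in siPRMT8 and 9.41 to 9.54 in D3. In siSCR the averages were 9.41 and 9.47 in replicates 3 and 2, but 8.41 in replicate 1. That array stood apart from its group over all genes too, at 0.105 on the first principal component, against -26.2 and -22.2 for the other siSCR arrays and 13.6 to 25.7 for the knockdown arrays. Within siPRMT1, replicate 2 lay apart from replicates 1 and 3 for several FGF genes. It was thus singled out by values of the same genes that are tested. Fits without it show how far a call depends on that array, and their p-values are not independent support. For the 10 FGF genes, calls that came or went when either array was omitted are given with the gene. Other genes were not followed in the fits that leave out an array.

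Among the 10 genes, 2 were higher and 2 lower in siPRMT1 against siSCR, where 18.7% of all genes tested passed. In siPRMT8 against siSCR 3 were higher and 1 lower, with 23.8% of all genes passing. Against D3, 2 were higher and 1 lower in siPRMT1 (26.4% of all genes), and 3 were higher and 1 lower in siPRMT8 (27.7% of all genes). With so many genes passing in these comparisons, 3 or 4 calls among 10 genes do not set the group apart. When siPRMT1 and siSCR alone were fitted, 357 genes passed in all and 0 of the 10, with adjusted p-values of 0.0579 for Spry2, 0.0692 for Fgf5, 0.0932 for Fgfr3 and 0.113 for Fgf13. With siSCR replicate 1 and siPRMT1 replicate 2 omitted together, 7 of the 10 passed in siPRMT8 against siSCR, where 5710 of all genes did, and 6 in siPRMT1 against D3, where 5649 did. The comparisons of 1 knockdown with siSCR and with D3 share the knockdown arrays, and those of both knockdowns with 1 control share its arrays, so they are not independent. Fgf5 and Spry2 were the members higher in all 4 comparisons, and Fgf13 was lower in all 4. The median log2 change of the 10 genes was 0.020 in siPRMT1 and 0.041 in siPRMT8 against siSCR, next to 0.036 and 0.012 over all genes. The median size of the change without its sign was 0.30 and 0.22, next to 0.14 and 0.14 over all genes.

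**Figure D1:**
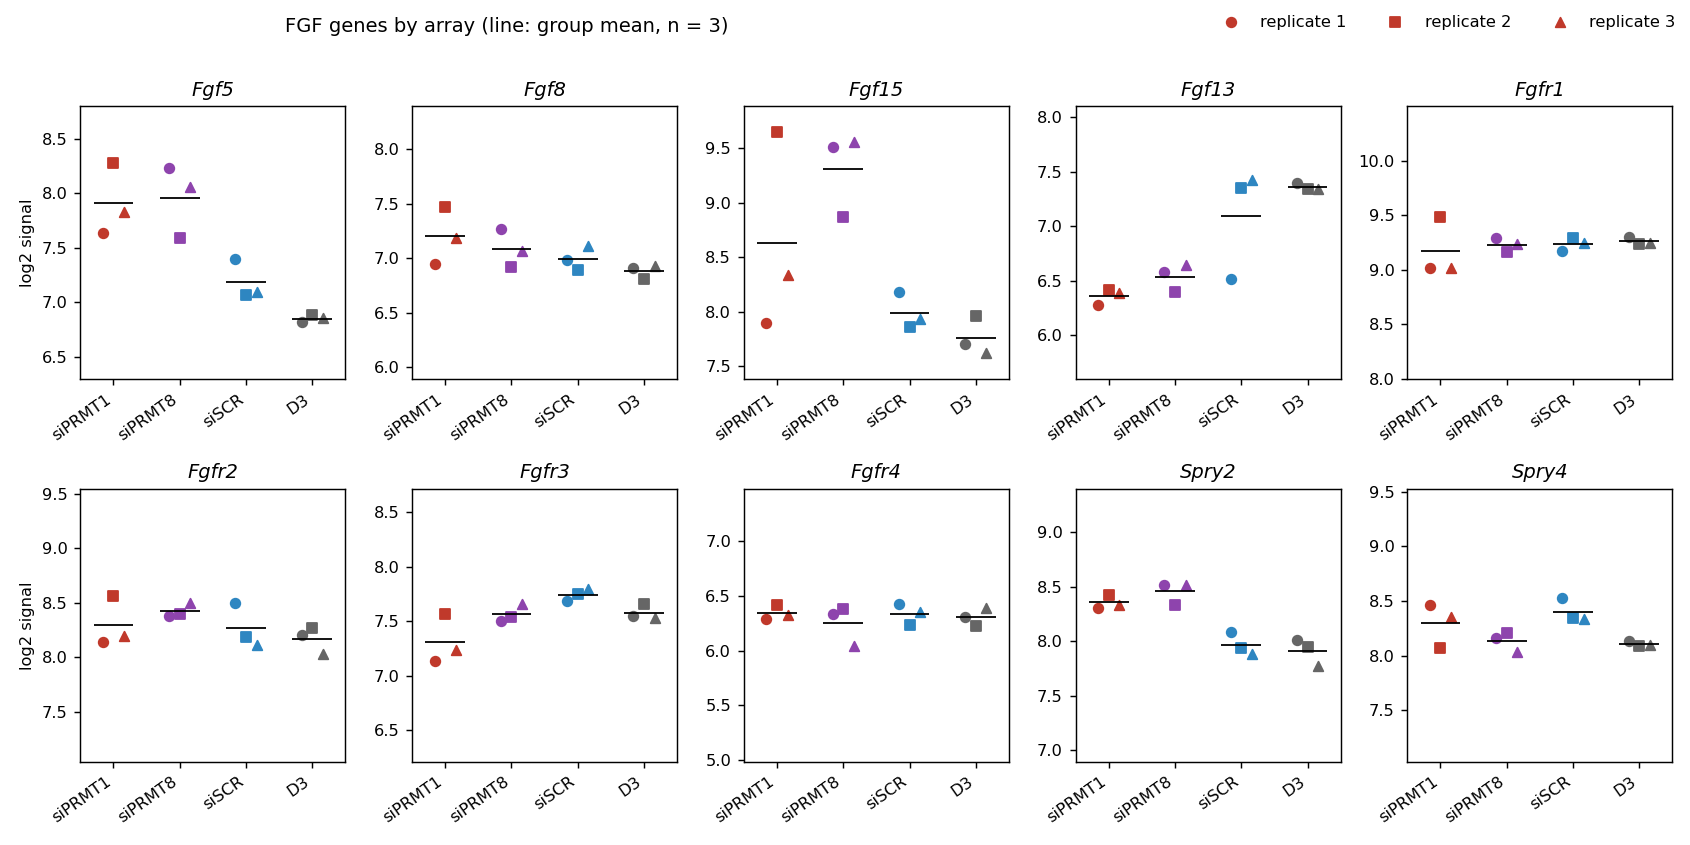
log2 signal of the 10 FGF genes in every array, by group, with the replicate shown by the marker and the mean of the 3 arrays as a line; each panel spans the same number of log2 units but has its own origin. Fgf5 and Spry2 lie above both controls in all knockdown arrays, Fgf13 lies low in the knockdowns and in siSCR replicate 1 (6.52), and Fgf15 spans 7.90 to 9.65 within siPRMT1.

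Fgf5 encodes a secreted ligand that marks the epiblast as it leaves naive pluripotency, and that later ends the growth phase of hair follicles. It read 7.63, 8.28 and 7.82 in siPRMT1, 8.23, 7.59 and 8.06 in siPRMT8, 7.39, 7.06 and 7.09 in siSCR, and 6.81, 6.88 and 6.86 in D3. Every knockdown array was above every control array. Fgf5 rose 1.66-fold in siPRMT1 against siSCR (log2 change 0.73, SE 0.177, adjusted p = 0.0158, n = 3 per group) and 1.71-fold in siPRMT8 (0.78, SE 0.177, adjusted p = 0.01). Against D3 the log2 change was 1.06 in siPRMT1 (adjusted p = 0.00152), and it was 1.11 in siPRMT8 (adjusted p = 0.00127). The siSCR arrays were also all above D3, by 0.33 on average, which did not pass (adjusted p = 0.599). In siPRMT1 against siSCR the change was 0.65 (adjusted p = 0.0076) when siSCR replicate 1 and siPRMT1 replicate 2 were omitted. It lost its call without siSCR replicate 2 (0.67, adjusted p = 0.0667) or replicate 3 (0.68, adjusted p = 0.0652). In these bulk cultures, more cells that make a transcript and more of it per cell cannot be told apart.

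Markers of pluripotency and epiblast were read beside Fgf5. Of 10 such genes, 2 rose and 0 fell in each knockdown against siSCR. These were Dnmt3b, a DNA methyltransferase of the epiblast (1.06 in siPRMT1 and 1.09 in siPRMT8), and Lin28a, an RNA-binding protein of early embryonic cells (1.09 and 0.88). Over all genes 18.7% passed in siPRMT1 and 23.8% in siPRMT8, so 2 of 10 is near the common share. Against siSCR the list's median log2 change was -0.063 in siPRMT1 and -0.19 in siPRMT8, below 0.036 and 0.012 over all genes. Against D3, 3 rose and 0 fell in each knockdown, where 26.4% and 27.7% of all genes passed. The list's medians against D3, 0.20 in siPRMT1 and 0.073 in siPRMT8, were above 0.051 and 0.028 over all genes. The side on which the list lay thus depended on the control. The 10 genes together averaged 9.12 to 9.79 in siPRMT1, 9.37 to 9.52 in siPRMT8, 9.31 to 9.54 in siSCR and 9.11 to 9.22 in D3. The highest Fgf5 value in siPRMT1, in replicate 2, came with the lowest average within siPRMT1, 9.12. The part of such cells in the Fgf5 values was not tested.

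Fgf5 and Spry2 are shown with the 250 bases before their RefSeq start (GRCm38.p6), because they were the members that rose in both knockdowns against both controls. The Fgf5 window is chr5:98253934-98254183 on the plus strand, and the Spry2 window is chr14:105896820-105897069 on the minus strand. Capitals mark CCGGAA, a longer form of the ETS core GGAA, and the GC box GGGCGG, on either strand. The shorter GGAA, which the Spry2 window also holds, was not marked or counted. Both motifs were chosen with the sequences in view.
Fgf5: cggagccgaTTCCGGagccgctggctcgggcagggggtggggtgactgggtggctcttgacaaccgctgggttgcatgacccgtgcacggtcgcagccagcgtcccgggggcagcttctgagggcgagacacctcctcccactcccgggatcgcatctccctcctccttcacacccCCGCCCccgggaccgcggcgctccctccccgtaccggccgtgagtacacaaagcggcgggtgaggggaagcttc
Spry2: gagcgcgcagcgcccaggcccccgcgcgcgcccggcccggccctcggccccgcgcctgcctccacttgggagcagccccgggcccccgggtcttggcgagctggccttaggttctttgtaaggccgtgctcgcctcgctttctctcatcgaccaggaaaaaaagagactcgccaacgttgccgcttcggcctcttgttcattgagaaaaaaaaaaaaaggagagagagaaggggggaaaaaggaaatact
The Fgf5 window held 1 CCGGAA, as TTCCGG beginning 241 bases before the start, and 1 GC box, as CCGCCC beginning 74 bases before it. The Spry2 window held neither string. Of the other members' windows, that of Fgfr4, which passed in no comparison, held 1 CCGGAA and 2 GC boxes. GC boxes also occurred in both Fgfr3 windows (3 and 2) and in 2 of the 4 Fgf13 windows (3 and 4), and the Fgfr2 window held neither string. Over all 32851 RefSeq windows of this length, 12.03% held CCGGAA and 32.74% held GGGCGG on either strand. The windows of Fgf5 and Spry2 were 70.8% and 62.4% G or C, next to a median of 52.4% over all windows. A match is a string of letters and not a site of binding. The promoter table held windows for 6 of the 10 genes. For Fgf13 it listed 4 starts, of 74.8%, 74.4%, 45.6% and 40.4% G or C, and the probe set of the whole gene does not tell which start was used.

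Fgf15 encodes a ligand of the embryonic midbrain, hindbrain and diencephalon that favours neurogenesis there, and that acts as a hormone from the gut in adults (FGF19 in human). It read 9.51, 8.87 and 9.56 in siPRMT8 and 7.90, 9.65 and 8.34 in siPRMT1. The controls read 8.18, 7.86 and 7.93 in siSCR, and 7.71, 7.96 and 7.62 in D3. All siPRMT8 arrays lay above all control arrays, whereas siPRMT1 replicate 1 lay inside the control range and replicate 2 was the highest of the 12 arrays. Fgf15 rose 2.50-fold in siPRMT8 against siSCR (log2 change 1.32, SE 0.347, adjusted p = 0.0183, n = 3 per group). Against D3 it rose by 1.55 in siPRMT8 (adjusted p = 0.00676). The Fgf15 call against siSCR was lost in 4 of the fits that omit 1 array. These were the fits lacking siSCR replicate 2 (1.26, adjusted p = 0.0627) or replicate 3 (1.29, adjusted p = 0.062), and those lacking replicate 1 (1.22, adjusted p = 0.0633) or replicate 3 of siPRMT8 (log2 change 1.2001, adjusted p = 0.0753).

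In siPRMT1 the log2 change of Fgf15 was 0.64 against siSCR (SE 0.347, 95% interval -0.12 to 1.40, adjusted p = 0.22). Against D3 it was 0.86 (adjusted p = 0.0856). It passed there without siPRMT1 replicate 1 (1.23, adjusted p = 0.0199) or with array weights (0.59, adjusted p = 0.0247). Without replicate 2 the change was 0.36 against D3 (adjusted p = 0.205) and 0.13 against siSCR (adjusted p = 0.685). The difference between siPRMT1 and siPRMT8 was -0.68 (adjusted p = 0.458), and -1.19 without siPRMT1 replicate 2 (adjusted p = 0.0135). Whether Fgf15 rose less in siPRMT1 than in siPRMT8 thus turned on a single array.

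Markers of the midbrain-hindbrain boundary, where Fgf8 and Fgf15 are made in the embryo, were read beside both ligands. Of 8 such genes, 1 rose and 1 fell in siPRMT1 against siSCR, and 2 rose and 1 fell in siPRMT8. The riser common to both was the ligand Wnt1 (0.97 in siPRMT1, adjusted p = 0.00443, and 1.22 in siPRMT8, adjusted p = 0.00135). The gene that fell in both was the transcription factor Pax8 (-0.49 in siPRMT1, adjusted p = 0.033, and -0.44 in siPRMT8, adjusted p = 0.0425). Against D3, 2 of the 8 rose and 2 fell in each knockdown. The list averaged 7.13 to 7.34 in siPRMT1, 7.31 to 7.39 in siPRMT8, 7.07 to 7.22 in siSCR and 7.28 to 7.37 in D3. Its part in the Fgf15 values was not tested.

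Fgf8, the ligand of the midbrain-hindbrain organiser and of the primitive streak, did not pass in any comparison. It read 6.95, 7.47 and 7.19 in siPRMT1, 7.26, 6.92 and 7.07 in siPRMT8, 6.99, 6.89 and 7.11 in siSCR, and 6.91, 6.81 and 6.93 in D3. Its highest value was again in siPRMT1 replicate 2, and the groups overlapped except siPRMT1 and D3. The log2 change against siSCR was 0.21 in siPRMT1 (95% interval -0.061 to 0.48, adjusted p = 0.261) and 0.091 in siPRMT8 (95% interval -0.18 to 0.36, adjusted p = 0.639). Against D3 it was 0.32 in siPRMT1 (adjusted p = 0.0751). Without replicate 2 the siPRMT1 change was 0.19 against D3 (adjusted p = 0.21) and 0.074 against siSCR (adjusted p = 0.662). The difference from D3 passed in 4 of 17 alternatives, with quantile normalization (0.39, adjusted p = 0.0398), median centring (0.39, adjusted p = 0.0308), array weights (0.27, adjusted p = 0.0247) or siPRMT1 replicate 1 omitted (0.45, adjusted p = 0.0187).

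Fgf13 belongs to the FGF homologous factors, which are not secreted and do not activate FGF receptors in the usual way. In neurons these proteins bind voltage-gated sodium channels, and Fgf13 also stabilises microtubules. Fgf13 read 6.28, 6.42 and 6.39 in siPRMT1, 6.58, 6.39 and 6.64 in siPRMT8, 6.52, 7.35 and 7.42 in siSCR, and 7.40, 7.34 and 7.34 in D3. The 3 D3 arrays and siSCR replicates 2 and 3 lay together, and siSCR replicate 1 lay within the siPRMT8 range. Fgf13 fell 1.67-fold in siPRMT1 against siSCR (log2 change -0.74, SE 0.184, adjusted p = 0.0176) and 1.47-fold in siPRMT8 (-0.56, SE 0.184, adjusted p = 0.0468). Against D3, whose arrays did not overlap with either knockdown, its log2 change was -0.9999 in siPRMT1 (adjusted p = 0.00248) and -0.82 in siPRMT8 (adjusted p = 0.00673).

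The size of the fall depended on siSCR replicate 1. Without it the changes against siSCR were -1.03 in siPRMT1 (adjusted p = 5.5e-06) and -0.85 in siPRMT8 (adjusted p = 2.47e-05). The call in siPRMT1 was lost without siSCR replicate 2 (-0.61, adjusted p = 0.0801) or 3 (-0.57, adjusted p = 0.0794). In siPRMT8 it was lost without siSCR replicate 2 (-0.43, adjusted p = 0.17) or 3 (-0.39, adjusted p = 0.18), and without any single siPRMT8 array. Quantile normalization (-0.49, adjusted p = 0.0691), median centring (-0.48, adjusted p = 0.0597) and no filter on dim genes (adjusted p = 0.058) also ended the siPRMT8 call.

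Fgf11, Fgf12 and Fgf14 complete the intracellular family. Fgf12 read 6.18, 6.14 and 6.23 in siPRMT1, 6.20, 6.54 and 6.44 in siPRMT8, 6.46, 7.87 and 7.84 in siSCR, and 7.50, 7.59 and 7.67 in D3. As with Fgf13, siSCR replicate 1 lay with the knockdown arrays. Fgf12 fell 2.31-fold in siPRMT1 (-1.21, SE 0.284, adjusted p = 0.0139) and 1.99-fold in siPRMT8 (-0.995, SE 0.284, adjusted p = 0.0263) against siSCR. Fgf11 changed by -0.74 in siPRMT1 (adjusted p = 0.00659), and its change in siPRMT8 was -0.84 (adjusted p = 0.00304), with no overlap between groups. Fgf14, named after its values were seen, lay at -0.38 in siPRMT1 (adjusted p = 0.178) and -0.33 in siPRMT8 (adjusted p = 0.225) against siSCR, and fell by 0.58 in siPRMT1 against D3 (adjusted p = 0.0418).

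Neuron markers were read beside the intracellular factors. Of 15 markers, 11 fell and 0 rose in siPRMT1 against siSCR (median log2 change -0.97), and 9 fell and 1 rose in siPRMT8 (median -0.76). Over the 12 arrays the marker average was either at 8.14 to 8.49, in the knockdown arrays and siSCR replicate 1, or at 9.41 to 9.54, in the remaining control arrays, and Fgf13 was low wherever this average was low. In siSCR replicate 1 Fgf11 read 6.83, below siSCR replicates 2 and 3 (7.24 and 7.15) but above the highest knockdown array (6.48). Fewer neurons and less Fgf13 RNA per neuron cannot be told apart here, and the part of neuron number was not tested.

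**Figure D2:**
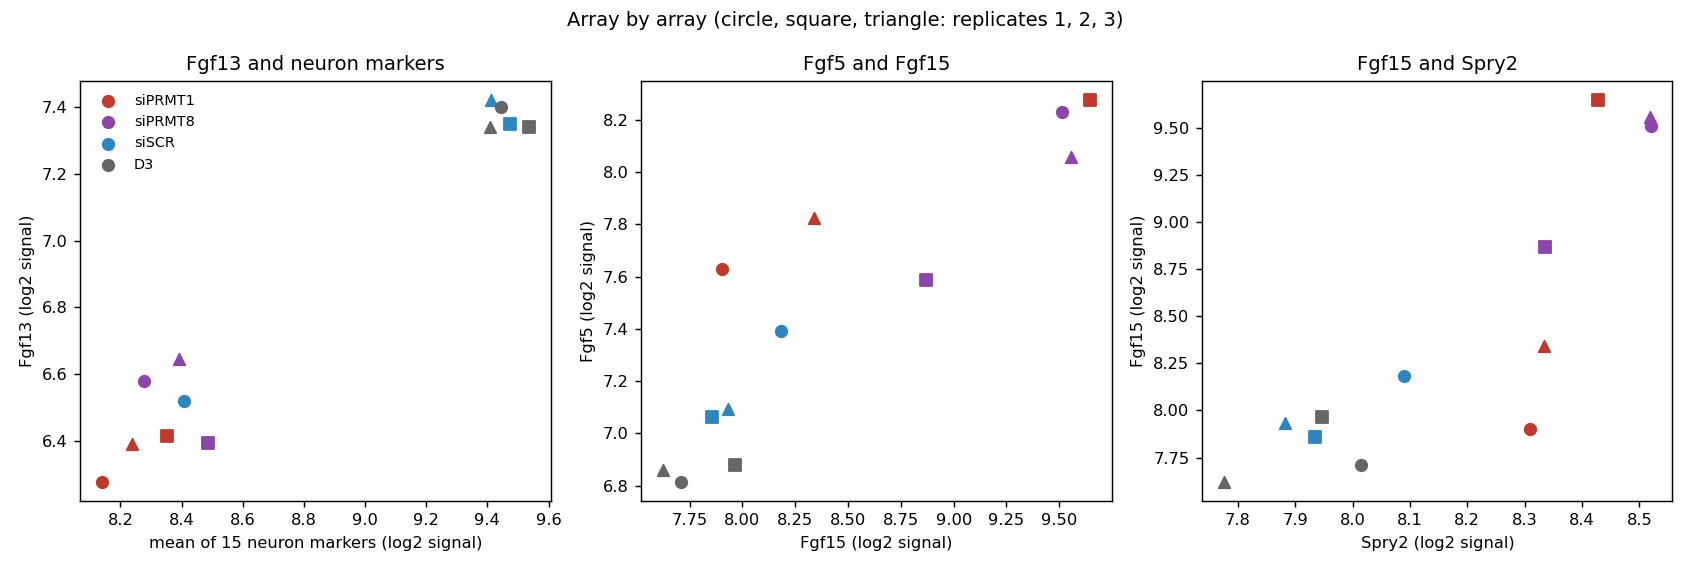
Values of single arrays, coloured by group. Left, Fgf13 against the average of 15 neuron markers, where siSCR replicate 1 (blue circle) lies with the knockdown arrays; middle, Fgf5 against Fgf15; right, Fgf15 against Spry2, where siPRMT1 replicate 1 (red circle) is high in Spry2 (8.31) but not in Fgf15 (7.90). All axes are log2 signals.

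Fgfr3, a receptor of neural progenitors and astrocytes, read 7.13, 7.57 and 7.24 in siPRMT1, 7.50, 7.54 and 7.66 in siPRMT8, 7.69, 7.75 and 7.79 in siSCR, and 7.54, 7.66 and 7.53 in D3. All knockdown arrays were below all siSCR arrays, whereas siPRMT1 and siPRMT8 each overlapped with D3. Fgfr3 fell 1.35-fold in siPRMT1 against siSCR (log2 change -0.43, SE 0.0987, adjusted p = 0.0125). In siPRMT8 it lay at -0.18 (95% interval -0.39 to 0.040, adjusted p = 0.222), and at -0.20 with a call when siSCR replicate 1 and siPRMT1 replicate 2 were omitted (adjusted p = 0.0393). Against D3 neither siPRMT1 (-0.26, adjusted p = 0.0672) nor siPRMT8 (-0.011, adjusted p = 0.947) passed. Without siPRMT1 replicate 2, the highest of its group, the change was -0.56 against siSCR (adjusted p = 0.00142) and -0.39 against D3 (adjusted p = 0.00282). The call against siSCR was lost without siSCR replicate 3 (-0.40, adjusted p = 0.0542).

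Astrocyte markers were read beside Fgfr3. Of 8, S100b was below the filter, and of the 7 tested 6 fell and 1 rose in each knockdown against siSCR (median -1.18 in siPRMT1 and -1.16 in siPRMT8). The 1 that rose, the gap junction gene Gja1 (0.71 in siPRMT1 and 0.77 in siPRMT8), is also expressed by neural progenitors. They averaged 7.31 to 7.65 in siPRMT1, 7.37 to 7.80 in siPRMT8, 8.21 to 8.67 in siSCR and 8.42 to 8.44 in D3. Of 12 neural progenitor markers 1 rose and 4 fell in siPRMT1, and 5 rose and 3 fell in siPRMT8. The part of these cells in the Fgfr3 values was not tested.

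Fgfr1, the receptor that most early neural cells use, read 9.02, 9.48 and 9.02 in siPRMT1, 9.29, 9.16 and 9.24 in siPRMT8, 9.17, 9.30 and 9.25 in siSCR, and 9.30, 9.24 and 9.25 in D3. Replicate 2 of siPRMT1 was the highest of all 12 arrays and the other siPRMT1 arrays were the lowest. The change in siPRMT1 against siSCR was -0.067 (95% interval -0.30 to 0.17, adjusted p = 0.689) with all arrays, and -0.22 without replicate 2 (adjusted p = 0.0278). Against D3 it was -0.090 (adjusted p = 0.554) with all arrays, and -0.24 without replicate 2 (adjusted p = 0.0131). In siPRMT8 it was -0.0091 (95% interval -0.24 to 0.22, adjusted p = 0.963).

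Fgfr2, whose splice forms differ in the ligands they bind, ranged from 8.03 to 8.56 over the 12 arrays. It was at 0.034 in siPRMT1 (95% interval -0.23 to 0.30, adjusted p = 0.869) and 0.16 in siPRMT8 (95% interval -0.11 to 0.43, adjusted p = 0.38) against siSCR. The siPRMT8 arrays (8.38, 8.40 and 8.50) lay above the D3 arrays (8.20, 8.26 and 8.03) by 0.26, which did not pass (adjusted p = 0.139). It passed in 3 of 17 alternatives, which were the fit of these 2 groups alone (adjusted p = 0.0183), array weights (0.27, adjusted p = 0.0134) and the omission of both siSCR replicate 1 and siPRMT1 replicate 2 (adjusted p = 0.00897). With those arrays omitted, Fgfr2 also rose in siPRMT8 against siSCR (0.28, adjusted p = 0.0125). Fgfr4, the receptor for Fgf15 in liver and a marker of muscle progenitors, ranged from 6.04 to 6.42. Its change against siSCR was 0.0063 in siPRMT1 (95% interval -0.20 to 0.21) and -0.087 in siPRMT8 (95% interval -0.29 to 0.11), and it passed in no comparison.

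**Figure D3:**
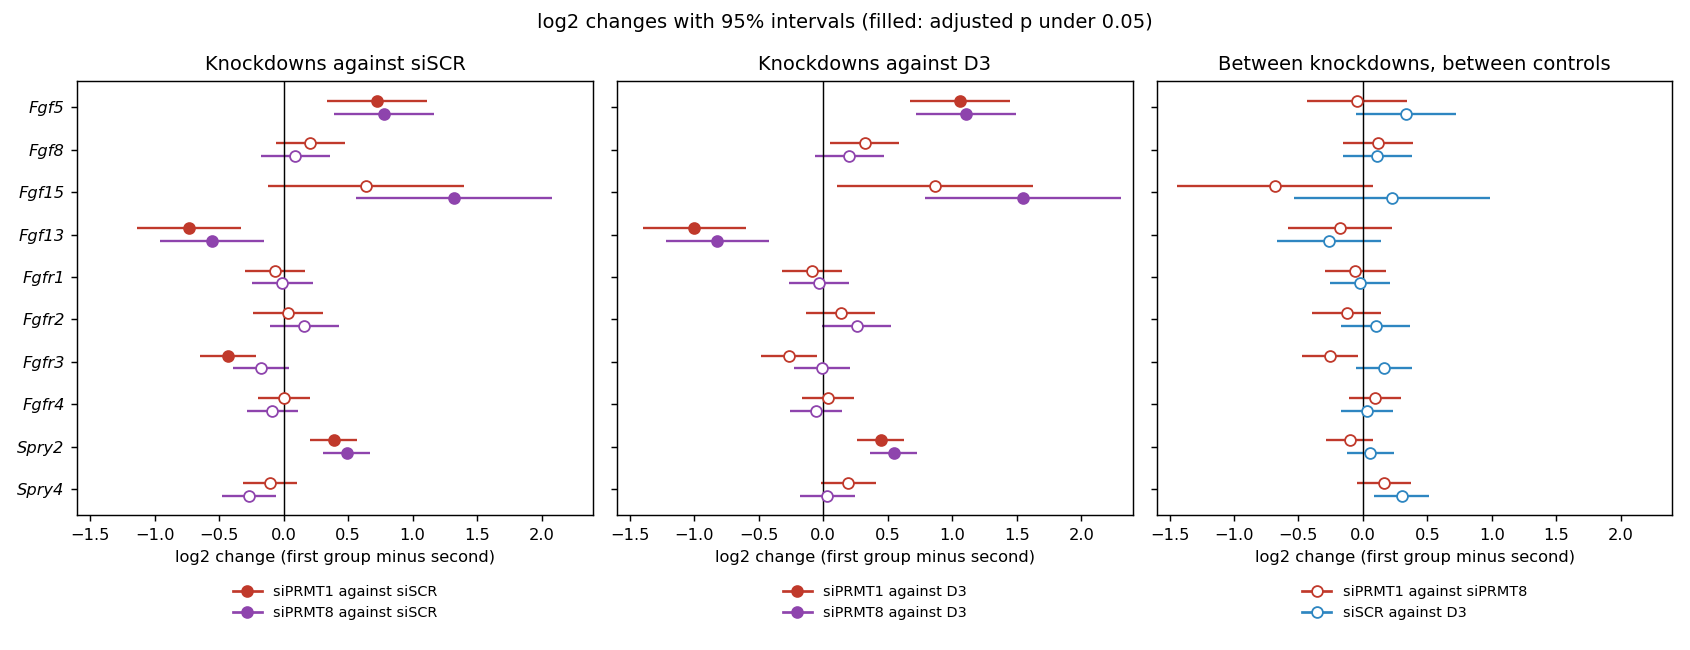
log2 change of each gene, first group minus second, with limma's 95% interval (lines) in 6 comparisons; filled points have an adjusted p under 0.05. Fgf5, Spry2 and Fgf13 are filled in all 4 comparisons of a knockdown with a control, Fgf15 in those of siPRMT8, and Fgfr3 in siPRMT1 against siSCR; no point is filled in the right panel.

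Spry2 and Spry4 encode Sprouty proteins, which are induced by FGF signalling and restrain the RAS and MAP kinase cascade. Spry2 read 8.31, 8.43 and 8.33 in siPRMT1, 8.52, 8.34 and 8.52 in siPRMT8, 8.09, 7.93 and 7.88 in siSCR, and 8.01, 7.95 and 7.78 in D3. The lowest knockdown array was above the highest control array. Spry2 rose 1.31-fold in siPRMT1 (log2 change 0.39, SE 0.0834, adjusted p = 0.00911) and 1.40-fold in siPRMT8 (0.49, SE 0.0834, adjusted p = 0.0026) against siSCR. Against D3 it rose by 0.44 (adjusted p = 0.00278) and 0.55 (adjusted p = 0.00106). In every fit with 1 array left out, these 4 calls held.

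Spry4 did not follow Spry2. It read 8.47, 8.07 and 8.36 in siPRMT1, 8.16, 8.21 and 8.03 in siPRMT8, 8.52, 8.35 and 8.34 in siSCR, and 8.13, 8.08 and 8.09 in D3. The siSCR arrays were above all siPRMT8 and all D3 arrays. Its change in siPRMT8 against siSCR was -0.27 (95% interval -0.48 to -0.056, adjusted p = 0.0651). This became -0.21 and passed when siSCR replicate 1 and siPRMT1 replicate 2 were omitted (adjusted p = 0.028). Against D3 the siPRMT8 change was 0.031 (adjusted p = 0.841). In siPRMT1 it was -0.11 against siSCR (adjusted p = 0.469) and 0.19 against D3 (adjusted p = 0.159). Without siPRMT1 replicate 2, the lowest of its group, the change against D3 was 0.31 and passed (adjusted p = 0.012).

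The comparison of siPRMT1 with siPRMT8 asks whether the knockdowns differ from each other, and that of siSCR with D3 what the scrambled line itself shows. In each, 0.154% of all genes passed and 0 of the 10 FGF genes did with limma. At an unadjusted p under 0.05 there was 1 gene in each, Fgfr3 in siPRMT1 against siPRMT8 (log2 change -0.25, 95% interval -0.47 to -0.038, adjusted p = 0.336) and Spry4 in siSCR against D3 (0.30, 95% interval 0.087 to 0.51, adjusted p = 0.322). For Fgf5 the difference between siPRMT1 and siPRMT8 was -0.050 (adjusted p = 0.94), for Spry2 it was -0.10 (adjusted p = 0.664), and for Fgf13 it was -0.18 (adjusted p = 0.741). These p-values do not show that the knockdowns act alike. Without siPRMT1 replicate 2, Fgf15 (-1.19, adjusted p = 0.0135) and Fgfr3 (-0.38, adjusted p = 0.018) were lower in siPRMT1 than in siPRMT8. In that fit 862 of all 14953 genes passed, in place of 23, and the array had been singled out by values of these genes. Omitting siSCR replicate 1 as well, 5 of the 10 genes passed there, 1 higher (Spry4, 0.28) and 4 lower (Fgf15, Fgfr1, Fgfr2 and Fgfr3). Over all 14953 genes 1901 passed in that fit.

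Within siPRMT1, replicate 2 lay at 1 end of its group for every member, but not always far out. Its deviation from the group mean was 1.02 for Fgf15, but 0.054 for Fgf13, 0.070 for Spry2 and 0.072 for Fgfr4. Replicate 2 was the highest of its group in Fgf5, Fgf8, Fgf15, Fgf13, Spry2 and all 4 receptors, and the lowest in Spry4. The feedback inhibitors Spry1 (8.70, 8.44 and 8.68 in replicates 1, 2 and 3) and Dusp6 (8.72, 8.40 and 8.92) were also lowest there. So was the ETS factor Etv5 (10.96, 10.15 and 10.86), whereas Etv4 was highest there (6.36, 6.60 and 6.45). The same array had the lowest average of pluripotency and epiblast markers in siPRMT1 (9.12, against 9.68 and 9.79). Cell cycle markers averaged 10.03 in it, against 10.33 and 10.36. These values move together in 1 array, and the part of any of them in the others was not tested.

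Beyond the 10 members, 58 further genes of the pathway were listed, of which 52 were on the array under 1 symbol and 47 were bright enough to test. Their calls come from the main fit alone and were not checked by leaving out arrays. In siPRMT1 against siSCR 1 rose and 5 fell, and in siPRMT8 3 rose and 6 fell. These shares, 12.8% and 19.1%, were below those of all genes tested there (18.7% and 23.8%). Against D3 5 rose and 11 fell in siPRMT1 (34.0%), and 5 rose and 12 fell in siPRMT8 (36.2%), shares above those of all genes there (26.4% and 27.7%).

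Of 11 other FGF ligands tested, 0 rose and 1 fell in each knockdown against siSCR. Fgf9, a ligand of glial and gonadal development, fell by 0.25 in siPRMT1 (adjusted p = 0.0498), and lay at -0.19 in siPRMT8 (adjusted p = 0.116). Fgf18, a ligand of skeletal and midbrain development, fell by 0.30 in siPRMT8 (adjusted p = 0.00576), and lay at -0.047 in siPRMT1 (adjusted p = 0.611). Of 7 co-receptors and binding proteins tested, 1 rose and 1 fell in each knockdown. Klb, the Klotho co-receptor through which Fgf15 signals, read 6.60, 6.82 and 6.62 in siPRMT1, 6.76, 6.68 and 6.83 in siPRMT8, 6.40, 6.22 and 6.22 in siSCR, and 6.32, 6.45 and 6.41 in D3, with every knockdown array above every control array. It rose by 0.40 in siPRMT1 (SE 0.0791, adjusted p = 0.00646) and 0.47 in siPRMT8 (adjusted p = 0.00239) against siSCR. Fgfrl1, a receptor without a kinase domain, read 7.91, 7.73 and 7.87 in siPRMT1, 7.81, 7.85 and 7.72 in siPRMT8, 8.13, 8.39 and 8.33 in siSCR, and 8.23, 8.00 and 8.05 in D3. Against siSCR its log2 change was -0.45 in siPRMT1 (SE 0.0871, adjusted p = 0.00564) and -0.50 in siPRMT8 (adjusted p = 0.00293), and again no knockdown array reached a control array.

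Of 12 feedback inhibitors and transcriptional targets, 0 rose and 1 fell in siPRMT1, and 2 rose and 0 fell in siPRMT8. The genes most used as readouts of FGF and MAP kinase activity did not pass, but their siPRMT1 arrays were spread. In siPRMT1 replicates 1, 2 and 3 Dusp6 read 8.72, 8.40 and 8.92, Etv4 6.36, 6.60 and 6.45, and Etv5 10.96, 10.15 and 10.86. A change within this spread could be missed. Dusp6 lay at 0.0035 in siPRMT1 (adjusted p = 0.989) and 0.034 in siPRMT8 (adjusted p = 0.88), Etv4 at -0.16 (adjusted p = 0.141) and -0.060 (adjusted p = 0.575), and Etv5 at -0.087 (adjusted p = 0.752) and -0.076 (adjusted p = 0.793). Spry1, another Sprouty gene, lay at 0.14 in siPRMT1 (adjusted p = 0.292) and 0.021 in siPRMT8 (adjusted p = 0.892), and rose in siPRMT1 against D3 (0.31, adjusted p = 0.0237). Spred1 and Spred2 encode membrane-bound inhibitors of RAF activation. Spred2 fell by 0.21 in siPRMT1 (adjusted p = 0.0403), and Spred1 rose by 0.30 in siPRMT8 (adjusted p = 0.0459). Il17rd, which encodes the receptor-binding inhibitor Sef, rose by 0.18 in siPRMT8 (adjusted p = 0.0399) and lay at 0.16 in siPRMT1 (adjusted p = 0.0692). Against D3, 2 of the 12 rose and 2 fell in each knockdown. Il17rd rose there by 0.30 in siPRMT1 (adjusted p = 0.00263) and 0.32 in siPRMT8 (adjusted p = 0.00198). The genes that fell, named after their values were seen, were the Sprouty gene Spry3 (-0.74 in siPRMT1, adjusted p = 0.00316, and -0.56 in siPRMT8, adjusted p = 0.0136) and the MAP kinase phosphatase gene Dusp4 (-0.49, adjusted p = 0.0392, and -0.66, adjusted p = 0.00944). Against siSCR Spry3 lay at -0.29 in siPRMT1 (adjusted p = 0.184) and -0.10 in siPRMT8 (adjusted p = 0.653). Against siSCR, Spry2 passed in both knockdowns, while Spry1, Spry3, Spry4 and Dusp6 did not pass in either.

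Of 14 adaptors and MAP kinase genes tested, 0 passed in siPRMT1 against siSCR with limma (3 at an unadjusted p under 0.05). In siPRMT8 2 fell, Grb2, the adaptor that links receptors to RAS activation (-0.28, SE 0.0675, adjusted p = 0.0128), and Sos1, the exchange factor it recruits (-0.26, SE 0.0741, adjusted p = 0.0241). In siPRMT1 Grb2 lay at -0.19 (adjusted p = 0.0669) and Sos1 at -0.20 (adjusted p = 0.0814). Over all genes 18.7% passed in siPRMT1 and 23.8% in siPRMT8 against siSCR. Against D3, 0 rose and 2 fell in siPRMT1 (26.4% of all genes passed), and 0 rose and 4 fell in siPRMT8 (27.7%). Sos1 fell there in siPRMT1 (-0.23, adjusted p = 0.0364) and in siPRMT8 (-0.30, adjusted p = 0.0115).

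**Figure D4:**
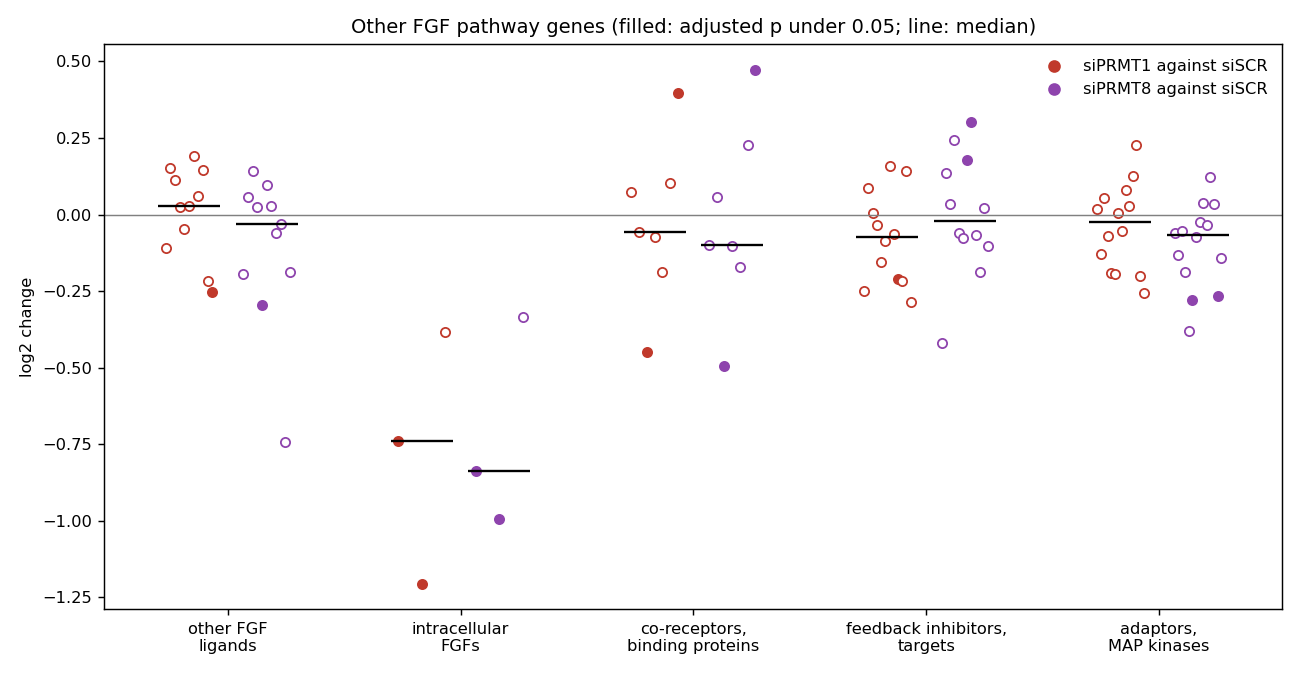
log2 change of the 47 other FGF pathway genes tested, by list, in siPRMT1 (red) and siPRMT8 (purple) against siSCR; a point is a gene, filled where its adjusted p is under 0.05, and the line is the list's median. The intracellular factors lie lowest (median -0.74 in siPRMT1 and -0.84 in siPRMT8), and the other medians lie between -0.10 and 0.027.

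Spry2 had the largest F statistic of the 10 genes over the 4 groups. Among 14943 other genes, those whose 12 log2 values were most like it were Ppih (Pearson r = 0.986), which encodes a spliceosomal cyclophilin, Suv39h2 (r = 0.983), a histone methyltransferase, and Dhrs4 (r = 0.981), a dehydrogenase. Ppih read 9.93, 10.03 and 9.88 in siPRMT1, 10.05, 9.86 and 10.10 in siPRMT8, 9.66, 9.50 and 9.39 in siSCR, and 9.54, 9.56 and 9.42 in D3. The arrays fall into knockdown and control sets, so any gene that separates these sets correlates highly with Spry2, and the 3 genes were selected as the highest.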

How the data were processed

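The authors' table of log2 signals, with 35556 probe sets on 12 arrays, was used as deposited. Per the labels' protocols, total RNA was made into biotin-labelled single-stranded cDNA for the arrays. How the authors corrected background, summarised and normalised is not given in the sources used here. Values ran between 0.97 and 13.54, which fits a log2 scale, with array medians within 0.023 of each other. No detection calls were used here, so levels of different genes are not compared.

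Probe sets with 1 symbol in the platform's annotation were kept (21789), and symbols were updated by gene ID through RefSeq of GRCm38.p6 (21698 matched). Per symbol the probe set with the highest mean was used. The 25% of genes with the lowest mean (below 5.43) were left out, and all 10 members passed. Groups were fitted with limma 3.58.1 in R 4.3.3 as 4 means (8 residual degrees of freedom), with Benjamini-Hochberg adjustment over 14953 genes. The fit was tested on simulated data.

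The members and lists were chosen with earlier results of these data known, which limits what their counts can show. All members are described. From each pathway list the rule named up to 3 higher and 3 lower passing genes of each knockdown against siSCR, and always Dusp6, Etv4, Etv5, Spry1 and Spred1. Genes of like pattern were the 3 with the highest correlation.

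Replicate numbers occur in every group. Arrays of the same number had deviations from the group mean that correlated above 0.1 in 8 of 18 pairs (-0.56 to 0.29), and in all 3 pairs only for siSCR and D3 (0.107 to 0.194). There the replicate block gave 15 changed genes in place of 23, with 0 members passing in either fit. No 2 arrays were identical (Pearson r 0.945 to 0.997). The alternatives were quantile normalization, median centring, other filters, the mean of probe sets, 2-group fits, other variance models, array weights, a 1.5-fold threshold, the replicate block, the mean of both controls, and leaving out arrays.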

Additional observations from a re-analysis of the deposited data

How the results depend on the processing

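Each of the 60 log2 changes (10 genes, 6 comparisons) was recomputed under the alternatives. Of 1034 values, 970 kept their side of the threshold, 28 lost a call, 36 gained one, and 0 changed sign while passing. The count of members that passed in siPRMT1 against siSCR was 4, and 0 when only these 2 groups were fitted (357 genes passed in all, in place of 2801). It was 2 with a 1.5-fold threshold (837 of all genes), and 1 to 5 with 1 array left out. In siPRMT8 against siSCR it was 4 (3565 of all genes), 7 with array weights (5694 of all genes) and 2 with a 1.5-fold threshold (874). It was 7 when siSCR replicate 1 and siPRMT1 replicate 2 were omitted together (5710 of all genes), and 2 to 4 with 1 array left out. In siPRMT1 against D3 it was 3 (3952 of all genes), and 8 with array weights (6592 of all genes). It was 6 with both arrays omitted (5649 of all genes), and 3 to 6 with 1 array left out. In siPRMT1 against siPRMT8 it was 0 (23 of all genes), and 2 with array weights (1046 of all genes). It was 5 with both arrays omitted (1901 of all genes), and 0 to 2 with 1 array left out. It stayed at 0 in siSCR against D3, and at 3 to 5 in siPRMT8 against D3, under the alternatives run. With the replicate block the member counts were 4, 4, 3, 4, 0 and 0 in the order siPRMT1 and siPRMT8 against siSCR, siPRMT1 and siPRMT8 against D3, siSCR against D3, and siPRMT1 against siPRMT8, as without it, and it changed no member's call. Over all genes the block gave 14 calls in place of 23 in siPRMT1 against siPRMT8. The cause of these shifts was not tested. Signal over background was not used here, so no bound could be set on the dimmer genes, such as Fgfr4.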
